A study of Mus musculus with 14 samples.

Results

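Cytosolic ribosomal proteins were examined in hearts of mice that lost Fam210a, which encodes a mitochondrial protein, in heart muscle cells. The genes were chosen by name: symbols of the Rpl and Rps families, including the stalk proteins Rplp0, Rplp1 and Rplp2, the laminin-receptor protein Rpsa, and forms ending in a, l, l1 or x. A gene was kept when at least 3 hearts of each count table held at least 10 counts. Of 53735 gene symbols, 84 matched the names and 80 were kept, 48 of the large and 32 of the small subunit. Rpl24, Rpl39l, Rpl10l and Rps12l1 did not reach the minimum: their highest counts in any heart were 10, 5, 1 and 1. All 80 genes passed the test's own filter on low counts in every comparison.

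RNA was measured by poly-A selected sequencing in 14 hearts of male C57BL/6 mice. Every mouse, controls included, carried alphaMHCMCM/+, a tamoxifen-activated Cre recombinase under the Myh6 promoter, which is active in cardiomyocytes. Knockout hearts (cKO) had the genotype Fam210afl/fl, alphaMHCMCM/+, and control hearts had alphaMHCMCM/+ alone. There were 4 cKO and 4 control hearts at about 5 weeks after tamoxifen, when the labels call cardiac function normal, and 3 cKO and 3 control hearts at about 10 weeks, when they call it defective. Other cells of the heart keep Fam210a in this model. The genotype field of 5-week cKO replicate 4 gives the control genotype, while its title and description call it a knockout. It was treated as one; it had 150 CPM of Fam210a (CPM, a count scaled to a common library size with TMM factors), where the other cKO hearts of that time had 135 to 158 and the controls 165 to 178.

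These proteins and the ribosomal RNAs make up the cytosolic ribosome. Their mRNAs carry a terminal oligopyrimidine (TOP) start through which mTORC1 and LARP1 control their translation together, so that mRNA level and protein output can part. A few proteins have paralogues with their own tissue pattern. Rpl3, a large-subunit protein that reaches to the peptidyl transferase centre, has the form Rpl3l, which is made in heart and skeletal muscle and can take its place in the ribosome.

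Rpl3l lies on chromosome 17 from 24727820 to 24736143, plus strand, in 12 exon blocks, and Rpl3 on chromosome 15 from 80077791 to 80091868, minus strand (GRCm38, GENCODE M21). Their coding sequences of 1221 and 1209 bases were 74.3% identical over the 1206 aligned bases, and the longest identical run was 22 bases, shorter than the 100-base reads. The first 90 coding bases are shown because the whole comparison rests on telling this pair apart. The capitals mark the 21 positions at which they differ.

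Rpl3: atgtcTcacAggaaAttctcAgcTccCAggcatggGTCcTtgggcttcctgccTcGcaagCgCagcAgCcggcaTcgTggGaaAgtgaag
Rpl3l: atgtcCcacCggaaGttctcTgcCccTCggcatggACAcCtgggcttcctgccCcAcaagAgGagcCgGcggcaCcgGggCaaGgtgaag

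The 2 genes also differed in how safely their reads can be assigned. No 100-base window of the Rpl3l transcript occurred in a transcript of another annotated gene. Of the windows of the Rpl3 transcript, 79.4% did, mostly in Rpl3-ps1, Gm5879 and Rpl3-ps2. Rpl3 counts may therefore be too low by an amount that depends on how multiply mapped reads were handled, which the sources used here do not give. Of the 80 genes, 35 shared at least 50% of their windows with another gene and 14 shared under 10%.

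The 250 bases before the Rpl3l start are shown because Rpl3l is the gene with the largest change, from 24727576 to 24727825 of chromosome 17, plus strand (RefSeq, GRCm38.p6). The capitals mark matches to CANNTG, the E-box that myogenic and other basic helix-loop-helix factors can bind.

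Rpl3l promoter: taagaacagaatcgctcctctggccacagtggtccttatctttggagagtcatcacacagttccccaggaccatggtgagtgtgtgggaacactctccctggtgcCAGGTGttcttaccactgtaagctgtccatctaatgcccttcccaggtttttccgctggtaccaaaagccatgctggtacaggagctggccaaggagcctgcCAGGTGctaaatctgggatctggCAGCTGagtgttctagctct

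This stretch held 3 matches to CANNTG, counting both strands. It held no match to the TATA box letters TATAAA, to the ETS core CCGGAAG, to the TEAD core GGAATG or to the MEF2 site. Among 32851 RefSeq starts, 66.2% held CANNTG in their 250 upstream bases. Starts were listed for 59 of the 80 genes, 71 in all, and 47.9% of them held it. For CCGGAAG the shares were 25.4% of the 71 starts and 6.91% of all starts. For TATAAA they were 5.63% and 12.4%, for GGAATG 7.04% and 12.6%, and for the MEF2 site 0 of 71 starts and 0.508% of all. A match describes letters in a window and not a bound site.

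The hearts had 15657298 to 19466469 counts at 5 weeks and 29989076 to 35750964 at 10 weeks. Fam210a stood at 170 ± 6.04 CPM in controls and 146 ± 10.2 in cKO hearts at 5 weeks (SD, n = 4 each), and at 128 ± 7.27 and 66.8 ± 3.41 at 10 weeks (SD, n = 3 each). It was 1.17-fold lower at 5 weeks and not called (edgeR adjusted p = 0.17), and 1.92-fold lower at 10 weeks (edgeR adjusted p = 6.5e-05). All 13 sarcomere genes checked were detected in every group. One heart at each time stood apart from its own group in the ribosomal protein genes. In 5-week control replicate 3 they took 0.901% of all counts, against 0.767% to 0.786% in the other 3 controls, and all 80 lay above the mean of the controls. In the 5-week cKO hearts the share was 0.821%, 0.908%, 0.941% and 0.797%. Every cKO heart thus exceeded the other 3 controls, and control replicate 3 lay within the cKO range. In 10-week cKO replicate 3 the genes took 2.25%, against 1.33% and 1.35% in the other cKO hearts and 1.22% to 1.45% in controls. The 10-week controls also differed among themselves. All 80 genes lay above the control mean in control replicate 1 and 0 did in control replicate 3. The medians against that mean were 0.141 and -0.161 on the log2 scale.

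The 5-week control replicate 3 and the 10-week cKO replicate 3 also stood apart in transcript length. Lengths were available for 85.5% of the genes tested at 10 weeks. Against the mean of the other 2 cKO hearts, the median gene in 10-week cKO replicate 3 was higher by 0.48 on the log2 scale among 852 other genes with transcripts under 1 kb, and by 0.28 among 2841 genes of 1 to 2 kb. It differed by 0.00 among 5237 genes of 2 to 4 kb and by -0.31 among 3767 longer genes. The ribosomal protein genes lay above that length trend: the median was 0.85 for the 55 under 1 kb and 0.74 for the 24 above it, and all 79 with a length were higher in this heart. In 5-week control replicate 3 the medians for other genes ran from 0.17 under 1 kb to -0.13 over 4 kb, and those for the ribosomal protein genes were 0.25 and 0.24. Mitochondrially encoded transcripts took 11.2% of counts in 10-week cKO replicate 3, 14.4% and 16% in the other cKO hearts, and 19.7% to 22.6% in controls. The part of RNA quality in these differences was not tested. The 10-week changes of many of the genes and lists described are therefore also given without this heart. Where a single value is given, it is with all hearts.

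**Figure D1:**
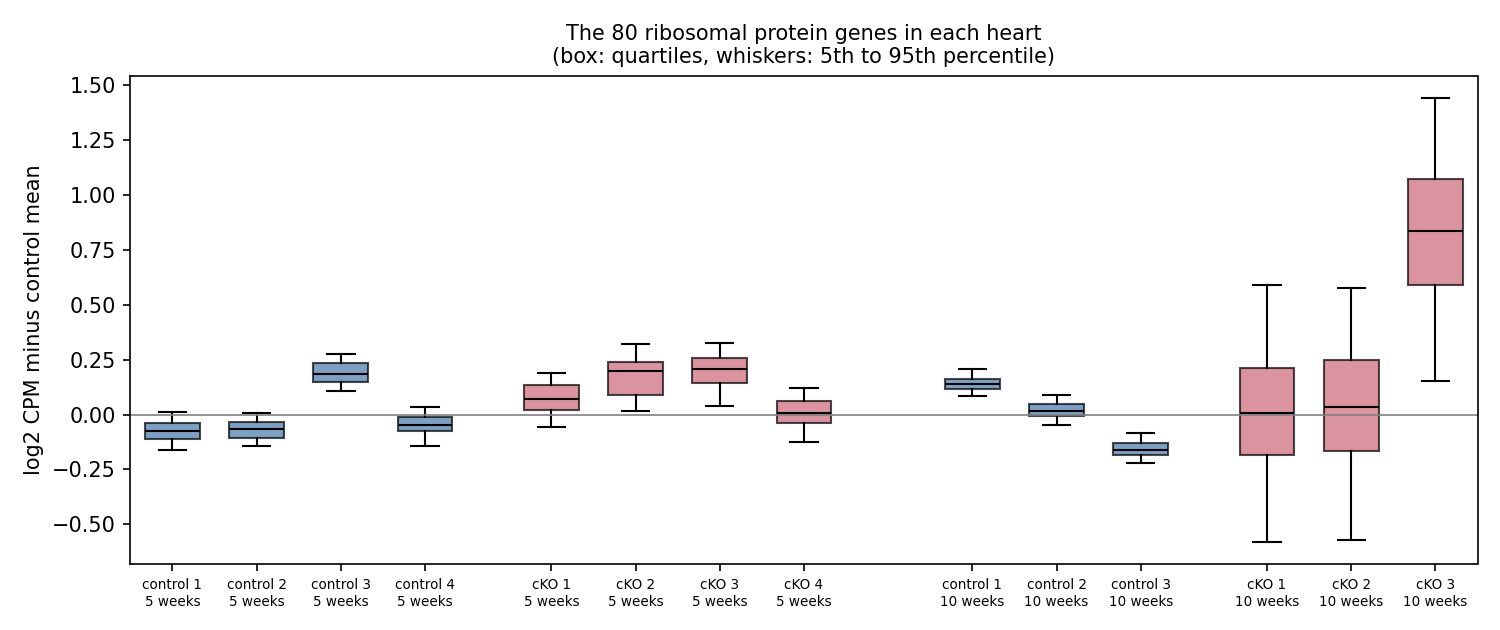
Each box shows the 80 ribosomal protein genes in 1 heart, as log2 CPM minus the mean log2 CPM of the controls of that time; the box spans the quartiles, the line is the median and whiskers reach the 5th and 95th percentiles. The median was 0.833 in cKO replicate 3 at 10 weeks and 0.004 and 0.030 in the other cKO hearts, whose boxes are far wider than those of the controls.

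At 5 weeks the differences between genotypes in the ribosomal protein genes were small. Only Rpl3 (1 of 80) rose, and none fell, by edgeR's quasi-likelihood test with adjustment over all 13529 genes (adjusted p under 0.05). Over all genes, 0.517% were called higher and 0.0961% lower. The fold change was above 1 for 74 of the 80 genes, with a median of 0.12 on the log2 scale against 0.00 over all genes, and the exceptions were Rpl27, Rpl37a, Rpl3l, Rpl41, Rpl7l1 and Rps2. At an unadjusted p under 0.05, 15 of the 80 were higher and 0 lower, where 5.54% of all genes were higher. Leaving out the control that stood apart raised the median to 0.18, with 79 of the 80 values positive. In 1 of the 80 genes, Rpl3, every cKO heart exceeded every control, against 2.98% of all genes, and in none was every cKO heart lower, against 2.68%.

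Rpl3 was measured at 87.9, 88.2, 92.9 and 88.1 CPM in the 4 controls and at 104, 113, 120 and 106 CPM in the 4 cKO hearts at 5 weeks. The groups did not overlap. The change was 0.31 ± 0.06 on the log2 scale (SE; edgeR adjusted p = 0.0314). The call did not survive leaving out control replicate 1, 2 or 4 or cKO replicate 2 or 3, with adjusted p-values from 0.1 to 0.131 and fold changes from 0.27 to 0.30 on the log2 scale. It was also lost when replicate 4 with the conflicting genotype was counted as a control (adjusted p = 0.0934).

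Rpl3l was measured at 199, 194, 267 and 198 CPM in the 5-week controls and at 212, 203, 195 and 196 CPM in the cKO hearts. The groups overlapped, and the highest value was that of control replicate 3. The change was -0.09 ± 0.09 on the log2 scale (SE; edgeR adjusted p = 0.805), and 0.03 without that control. The other genes named were those not called with the smallest p-values in each direction. Rpl4, which lines the exit tunnel for the new protein, had a log2 fold change of 0.20 (adjusted p = 0.26). For Rpl26, a large-subunit protein near the tunnel's end, it was 0.21 (adjusted p = 0.334). For Rpl27, another large-subunit protein and next after Rpl3l among the negative values, it was -0.06 (adjusted p = 0.891).

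At 10 weeks the muscle form was almost lost and the general form had risen. Rpl3l stood at 317, 259 and 236 CPM in the 3 controls and at 7.92, 7.53 and 10.4 CPM in the 3 cKO hearts. Every cKO heart was far below every control, the one that stood apart included. The change of -4.97 ± 0.19 on the log2 scale (SE) is a fall of 31.5-fold (edgeR adjusted p = 2.34e-07). Of the 9057 genes with a mean log2 CPM of at least 3, 16 had a lower fold change. Rpl3 moved the other way. It stood at 150, 147 and 138 CPM in controls and at 370, 359 and 605 CPM in cKO hearts, again with no overlap. The change was 1.62 ± 0.20 (SE; adjusted p = 0.000114), and 499 of the 9057 genes had a higher one. Without cKO replicate 3 the values were -5.12 for Rpl3l and 1.34 for Rpl3.

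**Figure D2:**
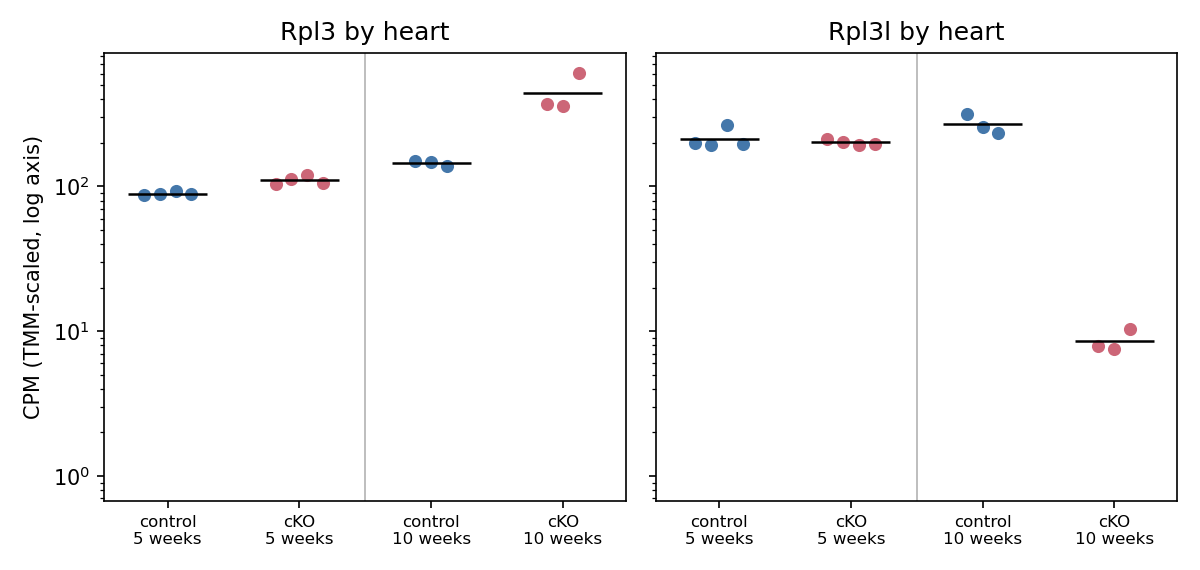
CPM of Rpl3 (left) and Rpl3l (right) on a log axis, 1 point per heart, with the group mean as a bar; the vertical line separates the tables of the 5-week and 10-week hearts. At 10 weeks the Rpl3l points of the cKO hearts lie between 7.53 and 10.4 CPM, below all controls, and their Rpl3 points between 359 and 605 CPM, above all controls.

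The ratio of Rpl3l to Rpl3 counts within a heart does not depend on library scaling. At 5 weeks it was 2.26, 2.20, 2.87 and 2.24 in controls and 2.04, 1.80, 1.62 and 1.85 in cKO hearts. All 4 cKO ratios were below all 4 control ratios, with a log2 difference of -0.38 (exact two-sided permutation test, p = 0.0286, the smallest possible with 4 against 4; 0.143 after adjustment over 10 ratio comparisons). Without control replicate 3 the difference was -0.29 (exact permutation p = 0.0571). At 10 weeks the ratio was 2.11, 1.76 and 1.71 in controls and 0.0214, 0.0210 and 0.0172 in cKO hearts, 93.6-fold lower. The exact permutation p of 0.1 is the smallest that 3 against 3 hearts allow. The 10-week cKO hearts thus had 46.7, 47.7 and 58.2 counts of Rpl3 for each count of Rpl3l. Because Rpl3 shares sequence with other annotated transcripts, these are ratios of counts and not of transcripts.

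The summed level of the pair was compared as well. At 5 weeks it was 304 ± 37.3 CPM in controls and 312 ± 6.5 CPM in cKO hearts (SD, n = 4 each). Without control replicate 3 the controls ran from 282 to 287 CPM, below all cKO hearts at 302 to 316 CPM, a log2 difference of 0.13. At 10 weeks it was 415 ± 47.1 CPM in controls and 453 ± 140 CPM in cKO hearts (SD, n = 3 each), and the cKO hearts gave 378, 367 and 615 CPM. The first pair of cKO values lay within the control range of 374 to 467 CPM or just under it, and the highest was that of replicate 3.

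Each of the other paralogues was compared with its parent in the same way. Rpl22l1 is the second form of Rpl22, Rpl7l1 is a relative of Rpl7, and Rps27l is a close relative of Rps27 known as a p53 target. Rps4x is the X-linked rodent gene for Rps4. Rps4l is annotated in GENCODE M21 as a transcribed processed pseudogene on chromosome 6, and the other 79 genes as protein-coding. Its transcript matched 79.9% of the bases aligned to the Rps4x coding sequence, with a longest identical run of 35 bases. Identity to the parent's coding sequence was 76.2% for Rps27l, 70.2% for Rpl22l1 and 59.8% for Rpl7l1.

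At 10 weeks Rps4l stood at 23.6, 24.4 and 16.9 CPM in controls and at 43.1, 60.1 and 93.3 CPM in cKO hearts. It rose by a log2 fold change of 1.60 with an SE of 0.27 (edgeR adjusted p = 0.000687), and by 1.27 without cKO replicate 3. Its parent Rps4x had -0.09 (adjusted p = 0.671), but -0.286 without that heart, where it was called lower (adjusted p = 0.0399). Rps27l stood at 45.8, 36.0 and 33.5 CPM in controls and at 58.6, 57.1 and 91.6 CPM in cKO hearts. It rose by 0.85 with an SE of 0.20 (adjusted p = 0.0053), and by 0.60 without that heart. Its parent Rps27 had -0.39 (adjusted p = 0.182), but -0.73 without that heart, where it was called lower (adjusted p = 0.00028). In Rps4l and Rps27l the groups did not overlap.

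Rpl22l1 stood at 18.5, 13.8 and 14.6 CPM in the 10-week controls and at 22.8, 20.9 and 30.2 CPM in cKO hearts. It rose by 0.65 on the log2 scale with an SE of 0.17 (adjusted p = 0.00902), and by 0.49 without cKO replicate 3. Its parent Rpl22 had -0.11 (adjusted p = 0.558), but -0.285 without that heart, where it was called lower (adjusted p = 0.0426). Rpl7l1 stood at 44.5, 41.1 and 38.5 CPM in controls and at 35.5, 38.5 and 45.1 CPM in cKO hearts, which overlap, with a log2 fold change of -0.06 (adjusted p = 0.7). Of the 5 paralogues, 3 rose, 1 fell and 1 was not called at 10 weeks, also without cKO replicate 3, in hearts where 31.8% of all genes were called higher and 33.2% lower. At 5 weeks none of the 5 was called, and their log2 fold changes ran from -0.09 to 0.22.

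As ratios to the parent, Rps4l was 3.15-fold, Rps27l 2.40-fold and Rpl22l1 1.71-fold higher in 10-week cKO hearts than in controls. In each of these 3 the groups did not overlap, with the smallest possible exact permutation p of 0.1. The Rpl22l1 ratio was 0.202 to 0.207 in cKO hearts and 0.107 to 0.127 in controls. The Rpl7l1 ratio was 0.891 of that in controls, with overlap (exact permutation p = 0.3). At 5 weeks the Rpl7l1 ratio was 0.166 to 0.189 in cKO hearts and 0.195 to 0.211 in controls (exact permutation p = 0.0286, adjusted 0.143), and the other 3 ratios overlapped. The Rps27 transcript shared 98.4% of its windows with other genes, chiefly Rps27rt, so its level is uncertain.

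**Figure D3:**
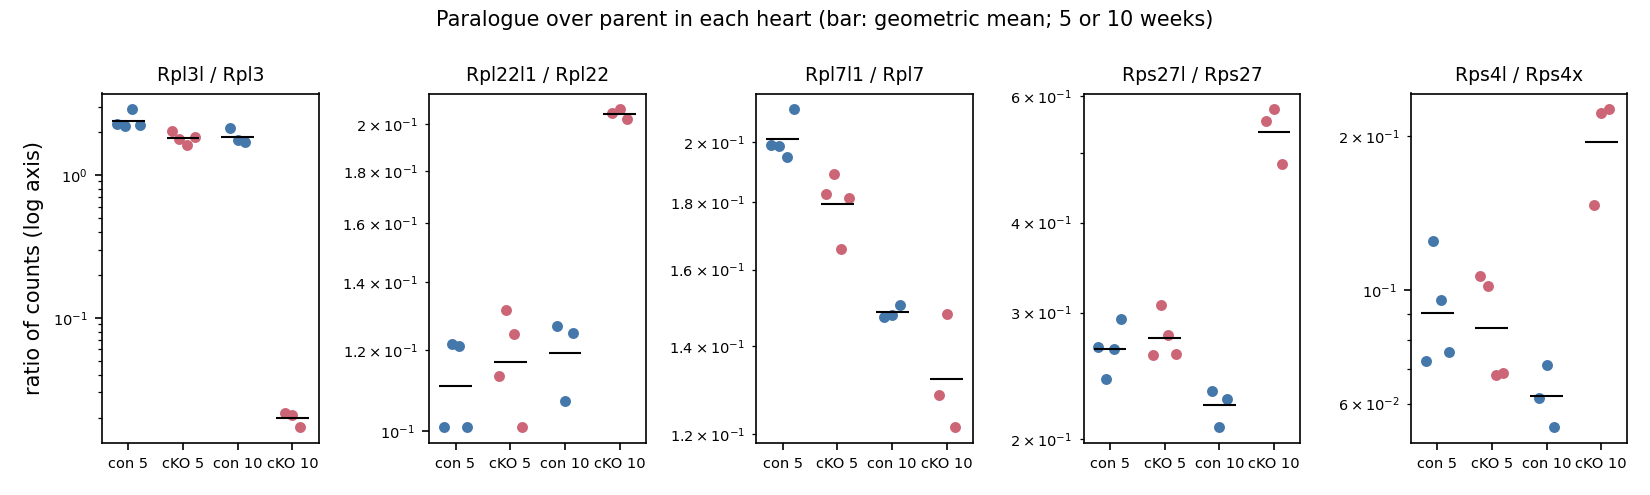
Ratio of paralogue to parent counts in each heart on log axes with separate ranges, for controls (con) and cKO hearts at 5 and 10 weeks; bars are geometric means. At 10 weeks the Rpl3l ratio of cKO hearts lies at 0.0172 to 0.0214, below the control ratios, and the Rpl22l1, Rps27l and Rps4l ratios of cKO hearts lie above the controls.

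Across all 80 genes at 10 weeks, 19 rose and 2, Rpl3l and Rps2, fell by edgeR's test over 14942 genes. This is 23.8% higher and 2.50% lower, where 31.8% of all genes were called higher and 33.2% lower. With all hearts both shares were lower than those over all genes, and this difference was not tested. The low share of falling genes depended in part on cKO replicate 3. Without that heart 12 of the 80 were called lower, where 35.5% of all genes were. The median log2 fold change was 0.35, against -0.02 over all genes, and 69 of 80 values were positive. In 25 genes every cKO heart exceeded every control, against 34% of all genes, and in 1 gene, Rpl3l, every cKO heart was lower, against 35.9%. Of 852 other genes with transcripts under 1 kb, 28.9% were called higher and 31% lower.

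The overall upward shift came with 1 heart. Without cKO replicate 3, 17 genes were called higher, all of them among the 19, and 12 lower; the median was 0.02 and 42 of 80 values were positive. Without cKO replicate 1, 31 were called higher, without control replicate 3, 12. The 2 calls lost without cKO replicate 3 were those of Rpl7a and Rps28. The 10 genes that then joined Rpl3l and Rps2 as lower were Rpl22, Rpl23a, Rpl31, Rpl36, Rpl37a, Rplp2, Rps21, Rps27, Rps29 and Rps4x. Over all genes, 34.2% were called higher and 35.5% lower in that fit.

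**Figure D4:**
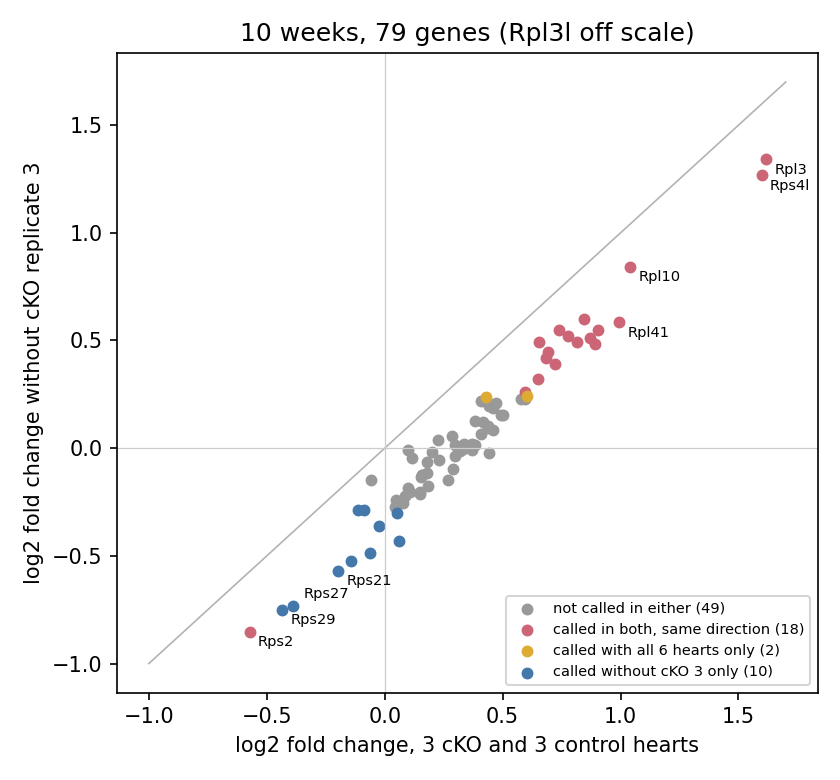
Log2 fold changes of 79 ribosomal protein genes at 10 weeks with all 6 hearts (horizontal axis) and without cKO replicate 3 (vertical axis); Rpl3l, at -4.97 and -5.12, lies off the scale and the diagonal marks equal values. All points lie below the diagonal, 18 genes are called in the same direction in both fits, 2 with all hearts only and 10 without cKO replicate 3 only.

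Several genes differed from the rest of the family. When libraries were further scaled so that the median ribosomal protein gene sat at the same level in every heart, an alternative added after seeing the data, 5 of the 80 were called higher and 5 lower, where 13.4% of all genes were called higher and 28.9% lower. The 5 higher ones, Rpl3, Rps4l, Rpl10, Rpl41 and Rpl12, and both genes called lower with all hearts, Rpl3l and Rps2, were called in all 3 fits. The other genes called lower on this scale were Rps27, Rps29 and Rps21. On this scale, 67 of the 80 genes lay within 0.5 of 0 on the log2 scale.

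**Figure D5:**
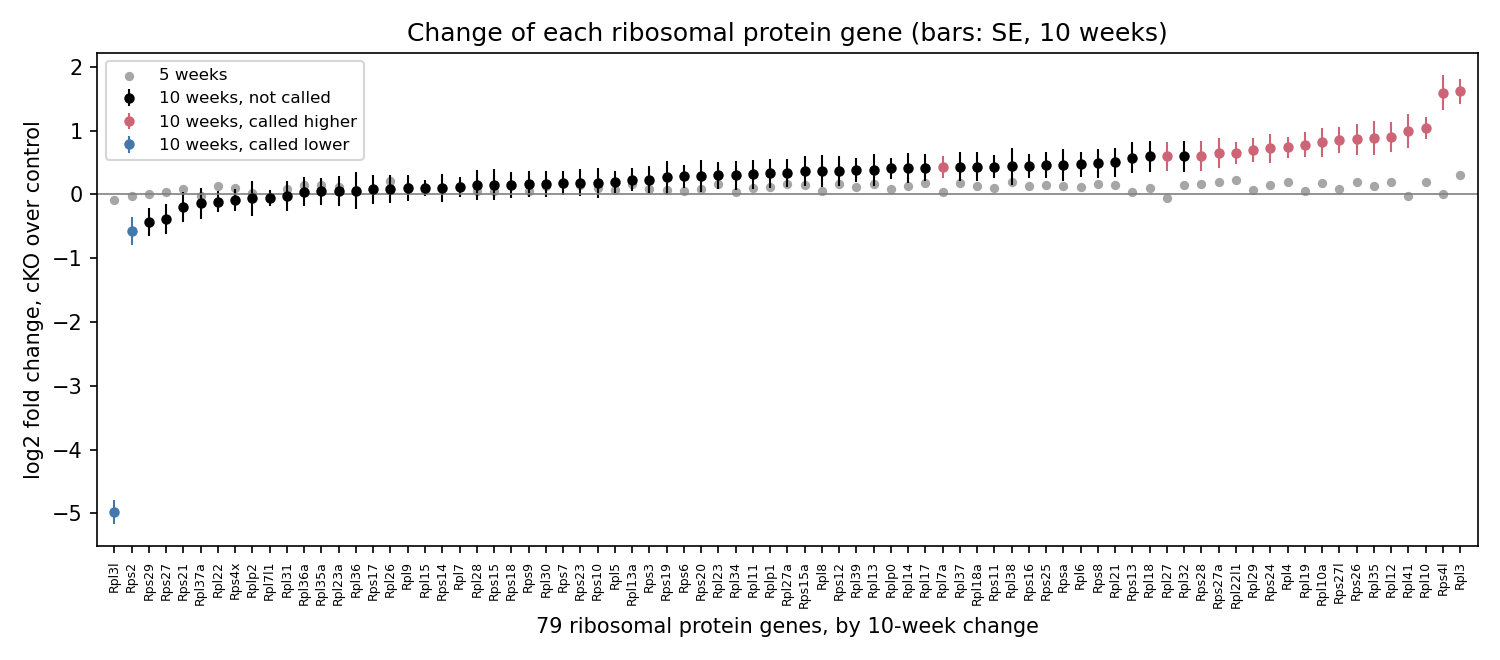
Log2 fold changes (cKO over control) of 79 of the 80 genes, ordered by the 10-week value; bars are SE at 10 weeks and grey points are the 5-week values. Rpl3l at -4.97 stands below all others, Rps4l and Rpl3 at 1.60 and 1.62 stand highest, and the 5-week values lie between -0.09 and 0.31.

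Among the large-subunit proteins, 12 of 48 rose and 1 fell at 10 weeks, or 25% and 2.08%, where 31.8% and 33.2% of all genes did. Without cKO replicate 3 the counts were 11 and 7. Rpl10, which joins the subunit late in its assembly near the tRNA sites, stood at 203, 195 and 176 CPM in controls and at 344, 337 and 501 CPM in cKO hearts. It rose by 1.04 on the log2 scale with an SE of 0.17 (edgeR adjusted p = 0.000543), and by 0.84 without cKO replicate 3. Of its windows, 91.6% occur in other annotated genes, mostly Rpl10 pseudogenes. Rpl41, a very short peptide, stood at 174, 173 and 138 CPM in controls and at 242, 240 and 486 CPM in cKO hearts. It rose by 0.99 with an SE of 0.27 (adjusted p = 0.00877), and by 0.58 without that heart. In both genes the groups did not overlap.

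Rpl12, a protein at the base of the stalk that recruits translation factors, stood at 205, 187 and 169 CPM in controls and at 257, 285 and 507 CPM in cKO hearts. Its log2 fold change was 0.90 (adjusted p = 0.0085), and 0.55 without cKO replicate 3. Rpl4 stood at 510, 480 and 455 CPM in controls and at 705, 695 and 1009 CPM in cKO hearts, with a log2 fold change of 0.74 (adjusted p = 0.00332), and 0.55 without that heart. The remaining large-subunit genes that rose were Rpl35, Rpl10a, Rpl19, Rpl29, Rpl22l1, Rpl27 and Rpl7a, with log2 fold changes from 0.43 to 0.89, and from 0.24 to 0.52 without that heart, where Rpl7a was no longer called. None of the 3 stalk proteins was called with all hearts: the values were 0.41 for Rplp0, 0.33 for Rplp1 and -0.06 for Rplp2. Without cKO replicate 3 they were 0.217, -0.003 and -0.485, and Rplp2 was called lower (adjusted p = 0.00416).

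Among the small-subunit proteins, 7 of 32 rose and 1 fell, or 21.9% and 3.12%, where 31.8% and 33.2% of all genes did. Without cKO replicate 3 the counts were 6 and 5. Those that rose included Rps4l, Rps26, Rps27l, Rps24, Rps27a and Rps28. Rps26, which lies at the mRNA exit channel, stood at 106, 99.0 and 82.2 CPM in controls and at 140, 131 and 254 CPM in cKO hearts, with a log2 fold change of 0.87 (adjusted p = 0.0112), and 0.51 without cKO replicate 3. Rps2, which lies at the mRNA entry channel, stood at 472, 391 and 357 CPM in controls and at 214, 233 and 373 CPM in cKO hearts. The groups overlapped through cKO replicate 3. The log2 change of Rps2 was -0.57 ± 0.21 (SE; edgeR adjusted p = 0.0398), and -0.85 without that heart (adjusted p = 0.000104). The call was lost without control replicate 1 or 2 or without cKO replicate 1 or 2, with adjusted p-values from 0.0742 to 0.143, with DESeq2 size factors (0.0519) and with the replicate block (0.0663). Of the windows of the Rps2 transcript, 64.7% occur in other annotated genes, Rps2-ps10 most often, so its level is uncertain.

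Rps29, a small-subunit protein with a zinc finger, stood at 296, 265 and 232 CPM in controls and at 154, 158 and 274 CPM in cKO hearts. Its value of -0.44 was not called with all hearts (adjusted p = 0.112) and was -0.75 without cKO replicate 3 (adjusted p = 0.000134). Rps27, also a zinc-finger protein, stood at 196, 173 and 147 CPM in controls and at 106, 99.4 and 190 CPM in cKO hearts, with -0.39 (adjusted p = 0.182) and, without that heart, -0.73 (adjusted p = 0.00028). In both genes the first pair of cKO hearts lay below all controls and replicate 3 lay among them.

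Rps2 lies on the same strand of chromosome 17 as Rpl3l, from 24718116 to 24721929, and ends 5890 bases before it. Between them is Ndufb10, which encodes a subunit of respiratory complex I, on the opposite strand. Ndufb10 stood at 650, 539 and 482 CPM in the 10-week controls and at 278, 293 and 574 CPM in cKO hearts, with a log2 fold change of -0.55 (edgeR adjusted p = 0.0998). Its high value was again in cKO replicate 3. On the other side of Rpl3l, Msrb1, a methionine sulfoxide reductase, had a log2 fold change of 0.23 and was not called. On the far side of Rps2, Tbl3, of the small-subunit processome, rose by 1.16 (adjusted p = 0.00017) and Zfp598, the homologue of the collided-ribosome ubiquitin ligase ZNF598, by 0.90 (adjusted p = 0.000111). These neighbours were named after their values were seen.

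The change differed between the times for 17 of the 80 genes, by the genotype-by-time contrast of edgeR over all 14 hearts and 14555 genes. It was higher at 10 weeks for 16 genes and lower for 1, Rpl3l, where 29.8% of all genes were called higher and 31.3% lower. The contrast was -4.87 with an SE of 0.20 for Rpl3l (adjusted p = 7.13e-11), 1.60 with an SE of 0.38 for Rps4l (adjusted p = 0.00182), 1.33 with an SE of 0.20 for Rpl3 (adjusted p = 3.46e-05) and 1.05 with an SE of 0.28 for Rpl41 (adjusted p = 0.00439), on the log2 scale. Of the late hearts, leaving out cKO replicate 3 gave 9 higher and 17 lower, cKO replicate 1 or 2 gave 27 or 26 higher, and control replicate 2 or 3 gave 10 or 9 higher. Leaving out 5-week control replicate 3 gave 10 higher and 2 lower. Each time has its own count table, so only the changes within a table were compared and time cannot be told apart from table.

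Per kilobase of transcript, the highest levels in 5-week controls were 461 CPM for Rplp1, 358 for Rps15, 336 for Rps29 and 335 for Rplp2. In 10-week controls the order began with Rps29 at 677, Rplp1 at 645 and Rps15 at 522 CPM per kilobase. The lowest was Rpl13a at 8.11 CPM per kilobase, of whose windows 55.2% occur in other genes. On the same scale Rpl3l stood at 196 and Rpl3 at 107 in 10-week controls, and at 6.26 and 329 in cKO hearts. If no read from a shared window had been counted, Rpl3 would stand at 521 CPM per kilobase of its unshared 20.6% in those controls, above Rpl3l. Which of the pair was more abundant in control hearts can therefore not be told from these counts.

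The 5 genes outside the family whose levels most resembled those of Rpl3l across the 8 hearts at 5 weeks, by Pearson correlation of log2 CPM over 8961 genes, were Thap4, Stub1, Rtn2, Sfr1 and Etfb, with r from 0.97 to 0.99. The 8 hearts share the control that stood apart, which is the highest value in each of these genes, so the likeness describes that heart. At 10 weeks these 5 did not move together: Rtn2, a reticulon of striated muscle, had a log2 change of -2.81 and was called lower (adjusted p = 3.52e-06), Thap4 rose by 0.51 (adjusted p = 0.0194), and Stub1, Sfr1 and Etfb were not called.

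Genes whose products build ribosomes also changed at 10 weeks. Of 57 ribosome assembly and rRNA processing genes, 43 rose and 2, Dkc1 and Emg1, fell, with a median log2 fold change of 0.92, where 31.8% of all genes were called higher and 33.2% lower. Without cKO replicate 3 the counts were 44 and 3 and the median 0.92. The difference from the ribosomal protein genes was not tested. Nop14, of the small-subunit processome, rose from 23.0 ± 0.849 to 91.9 ± 6.87 CPM (edgeR adjusted p = 1.35e-06), and nucleolin, Ncl, from 225 ± 8.38 to 877 ± 121 CPM (SD, n = 3 each). Of 15 RNA polymerase I genes and factors, 8 rose and 2, Znrd1 and Ttf1, fell, and 8 and 4 did without cKO replicate 3. The catalytic subunit Polr1a stood at 57.4 ± 2.74 CPM in controls and at 122, 121 and 117 CPM in the cKO hearts (adjusted p = 2.49e-05). In Nop14, Ncl and Polr1a the groups did not overlap.

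Of 18 other TOP mRNAs, 11 rose and none fell at 10 weeks, with a median of 0.49, beside the same 31.8% and 33.2% of all genes. Without cKO replicate 3, 11 rose and 2 fell, with a median of 0.44. The elongation factor Eef1a1 stood at 776 ± 45.1 CPM in controls and at 2927, 2922 and 3367 CPM in cKO hearts, 3.96-fold higher (adjusted p = 3.27e-06). Btf3, of the nascent chain-associated complex, was 3.13-fold higher, and Npm1, a nucleolar chaperone, 1.76-fold. Of the ribosomal protein genes outside the name pattern, Fau, which encodes a fusion with a small-subunit protein, rose by 0.82 (adjusted p = 0.0171) and Gnb2l1, the scaffold RACK1, by 0.50 (adjusted p = 0.0347), or 0.44 and 0.27 without that heart, while Rps3a1 had 0.11 and was not called.

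Of 19 tested regulators of TOP mRNAs and growth, 12 rose and 1, Eif4ebp2, fell at 10 weeks. Over all genes, 31.8% were called higher and 33.2% lower. Without cKO replicate 3, with 20 tested, 15 rose and 2 fell, where 34.2% and 35.5% of all genes did. Sesn2, an inhibitor of mTORC1, rose 15.5-fold (adjusted p = 4.25e-06), Eif4ebp1, a repressor of cap-dependent translation, 5.79-fold, and Ddit4, another mTORC1 inhibitor, 3.63-fold. Sesn2 was the only gene of these lists called at 5 weeks, with a log2 fold change of 0.94 (adjusted p = 0.0406). Of 13 tested genes of ribosome rescue and quality control, 12 rose and none fell, beside the same 31.8% and 33.2% of all genes. Without cKO replicate 3, 12 rose and 1 fell. Ascc2, of the complex that splits collided ribosomes, stood at 26.4 ± 0.775 CPM in controls and at 152, 161 and 138 CPM in cKO hearts, 5.68-fold higher (adjusted p = 5.17e-07).

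Markers of other cells moved in the same 10-week hearts, where 31.8% of all genes were called higher and 33.2% lower. Of 9 endothelial markers, 8 fell, and their summed level was 703 to 772 CPM in cKO hearts and 1637 to 1816 CPM in controls. Of 11 macrophage markers, 9 fell, with sums of 229 to 296 and 446 to 453 CPM. Of 6 tested erythroid genes, all rose, with sums of 198 to 381 and 42.7 to 74.3 CPM. Of 9 fibroblast markers 5 fell and 1 rose, with sums of 1017 to 1486 CPM in cKO hearts and 1379 to 1826 in controls. Of 9 smooth muscle and pericyte markers 8 fell and 1 rose, with sums of 1680 to 2365 and 1555 to 1655 CPM. Of 7 proliferation genes 5 fell, with sums of 2.57 to 3.92 and 40.4 to 54.9 CPM. No gene of these lists was at 0 in any group. Of 12 skeletal muscle genes 5 were tested, of which 3 rose and 2 fell, and the list summed to 4014 to 5646 CPM in cKO hearts and 164 to 357 CPM in controls. Nearly all of that sum was Acta1, skeletal actin, which is also made in the heart, while the fast myosin Myh4 had 0 counts in all 6 hearts and Myh2 had 0 in the cKO hearts. The 13 sarcomere genes summed to 73175 to 86868 CPM in cKO hearts and 79155 to 89558 in controls, with 4 called higher and 4 lower. For each of these marker lists the counts called higher and lower were the same without cKO replicate 3. Further lists were checked. Of 7 atrial markers 1 rose and 3 fell, with sums of 1753 to 2893 CPM in cKO hearts and 145 to 959 in controls. Of 9 lymphocyte markers 2 were tested and both fell, and 5 of 5 tested fell without cKO replicate 3. Of 3 tested neutrophil markers 1 rose and 1 fell, and of 4 tested adipocyte markers 1 fell. In whole hearts, fewer cells of a type and less RNA per cell cannot be told apart, and the part of cell makeup in the ribosomal protein changes was not tested.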

How the data were processed

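The authors deposited whole-number read counts per gene symbol, 1 table per time. Per the labels' protocols, mRNA from 100 ng of total RNA was made into TruSeq V2 libraries, which do not mark strand, and read as single 100-base ends; per the submitters' processing notes, Trimmomatic 0.36, STAR 2.6.0c and GRCm38 were used. How reads were assigned to genes is not given in the sources used here. With no strand information, opposite-strand overlaps, which 19 of the 80 genes have, cannot be resolved. On the deposited counts, edgeR 4.0.16 (R 4.3.3) fitted its quasi-likelihood model (TMM, filterByExpr with minimum count 10 and minimum total 15, Benjamini-Hochberg adjustment over all genes), 4 against 4 and 3 against 3 hearts, and all 14 for the difference between times. The SE is the log2 fold change over the square root of F. Alternatives were other scalings, DESeq2 1.42.0, no filter on low counts, leaving out each heart and a replicate block. The procedure was tested on simulated data in which few genes changed and no heart stood apart, unlike in the 10-week hearts. The labels do not tie libraries to animals, and the spread behind each p-value may be partly technical. The genes, lists and rules were chosen with earlier results of these data known; length classes were set after seeing the data. Named genes were Rpl3, the paralogues, Rps4x, the 4 largest called changes in each direction per time (or those called, then the 2 smallest p-values), the 3 largest differences between times in each direction and up to 4 genes per ribosome list by smallest 10-week p; other genes were named after their values were seen. No library was a copy of another: within a group, any pair of hearts had a chi-square of at least 3.9 per gene. Values of some genes are not reported here, though they are counted in the totals.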

Additional observations from a re-analysis of the deposited data

Results flagged for a closer look

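Values of 5-week control replicate 3 lay far from the other 3 controls in 5 of the 24 groups examined (groups of 3 hearts were not examined), where chance flags about 5% of groups; the groups share this heart and are not independent. Rpl3 was 92.9 CPM there and 87.9 to 88.2 CPM in the others. Rpl3l was 267 CPM against 194 to 199 CPM, and Rps4x 189 CPM against 153 to 157 CPM. The share of counts in the 80 genes was 0.901% against 0.767% to 0.786%, and the Rpl3l to Rpl3 ratio 2.87 against 2.20 to 2.26.

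The knockout effect differed between 5 and 10 weeks by edgeR's genotype-by-time contrast, on the log2 scale, in 17 genes, of which 16 are given. It was -4.87 for Rpl3l. It was 1.60 for Rps4l, 1.33 for Rpl3, 1.05 for Rpl41, 0.86 for Rpl10, 0.77 for Rps27l, 0.77 for Rpl35, 0.75 for Rpl19 and 0.73 for Rpl12. It was 0.69 for Rps26, 0.67 for Rpl27, 0.66 for Rpl10a, 0.64 for Rpl29, 0.59 for Rps24, 0.56 for Rpl4 and 0.41 for Rpl7a. For Rpl7a the adjusted p-value was 0.0464, close to the threshold.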

How the results depend on the processing

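At 10 weeks the calls of Rpl3, Rpl3l, Rps4l, Rpl10 and Rpl41 were kept under all 15 alternatives run, with Rpl3l from -5.26 to -4.83 and Rpl3 from 1.28 to 1.76 on the log2 scale. Where a count or call moved, the cause was not tested. At 10 weeks genes called higher (19) ranged from 12 to 31 and lower (2) from 1 to 12 when a heart was left out; 33 were higher with no filter on low counts, 5 higher and 5 lower when scaled to the median ribosomal protein gene, and 1 lower with DESeq2 size factors or the replicate block. Upper-quartile scaling moved the median of all genes to -0.19, with 14 higher and 3 lower, and the split over all genes to 25.8% higher and 39% lower. For the difference between times (16 higher, 1 lower) leaving out a heart gave 9 to 27 and 1 to 17, upper-quartile scaling 6 and 4 (all-gene median -0.21), total counts 2 lower, no filter 25 and 2, and replicate 4 counted as control 2 lower. At 5 weeks the Rpl3 call was lost at 0.31 with total counts (adjusted p 0.0775), 0.28 with replicate 4 as control, 0.18 when scaled to the median gene (adjusted p 0.344) and 0.31 with the replicate block (adjusted p 0.0524), leaving 0 genes called in 3 of these; leaving out a heart gave 0 to 2 calls and Rpl3 at 0.27 to 0.34. Rpl3l ranged from -0.134 to 0.033 without a heart. The 5-week ratio of Rpl3l to Rpl3 was -0.32 with replicate 4 as control (exact permutation p 0.0893), -0.38 with the replicate block (exact permutation p 0.125) and -0.44 to -0.29 without a heart. Same-numbered hearts did not deviate together (correlations from -0.412 to -0.036). These are deviations from means of 3 or 4 hearts, so they cannot tell whether the numbers pair the hearts. The 10-week difference in share of counts was 0.280 percentage points and ranged from -0.023 to 0.434 without a heart. Values not called changed sign as follows. At 5 weeks Rps4l ranged from -0.133 to 0.165 and Rpl27 from -0.116 to 0.036 without a heart; scaled to the median gene, Rps4l was -0.107, Rps27l -0.029 and Rps4x -0.012; Rpl7l1 was 0.024 with replicate 4 as control. At 10 weeks Rpl7l1 ranged from -0.150 to 0.023 and Rps4x from -0.286 to 0.041 without a heart. With 3 hearts a group, single values cannot reach an exact p under 0.1.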
